A study of Mus musculus with 16 samples.

Results

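The collagen genes were taken as every gene whose symbol is Col, digits, a, digits, and 44 of the 24306 genes measured in the lungs of Fra-2 transgenic (TG) and wild-type (WT) mice met that rule. They comprised 11 fibrillar genes, 6 class VI genes of the beaded filaments, 6 class IV genes of the basement membrane, 2 multiplexins, 3 network-forming genes, 9 FACITs (collagens that sit on fibrils), 4 transmembrane genes and 3 others that include the anchoring fibril collagen. The collagen genes had 109 array features in all, and for each gene the brightest feature on average was used.

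Lung RNA came from mice 8 weeks of age, with 4 WT females, 4 WT males, 4 TG females and 4 TG males, and 1 single-colour Agilent array per mouse. TG mice overexpress Fra-2, the AP-1 transcription factor encoded by Fosl2, and WT mice were littermates without the transgene. Both came from a mixed BL6CBA line back-crossed to C57BL6/J and were kept under specific pathogen-free conditions. The promoter that drives the transgene is not given in the sources used here, and homogenate of the right lung was used, so that all cell types of the lung contributed RNA.

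Collagens are secreted or membrane-bound proteins built from chains that wind into a triple helix. Fibrillar collagens give the lung its tensile strength, class IV collagens form the sheet beneath alveolar epithelium and capillary endothelium, and class VI collagens make a fine filament network in between. Accumulation of fibrillar collagen by activated fibroblasts is the hallmark of lung fibrosis, and AP-1 factors are among the regulators of matrix genes.

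At 8 weeks a few collagen genes passed the test for a rise in TG lungs, and most of the others had positive fold changes that did not pass. By limma with Benjamini-Hochberg adjustment over all genes, 5 of 44 collagen genes (11.4%) passed an adjusted p of 0.05 with higher values in TG lungs, where 6.05% of all genes were higher. No collagen gene was lower, where 7.08% of all genes were lower. Those higher were Col1a2, Col15a1, Col6a5, Col16a1 and Col7a1, which belong to 5 different classes. At an unadjusted p under 0.05 there were 12 collagen genes, 9 with higher and 3 with lower values in TG lungs, where 28.1% of all genes lay under that limit. The log2 fold change (TG minus WT) was positive for 31 and negative for 13 collagen genes, with a median of 0.19 against -0.03 over all genes. Within females it was positive for 33 of the 44 (median 0.26), and within males for 25 (median 0.04). The median over all genes was -0.02 in each sex. Of all calls across the array 46.1% were rises, a share that became 70.8% when every array was centred on its median, which moved each fold change up by 0.10. Under that scaling 7 collagen genes were higher, where 9.66% of all genes were, and none was lower, where 3.98% were.

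**Figure D1:**
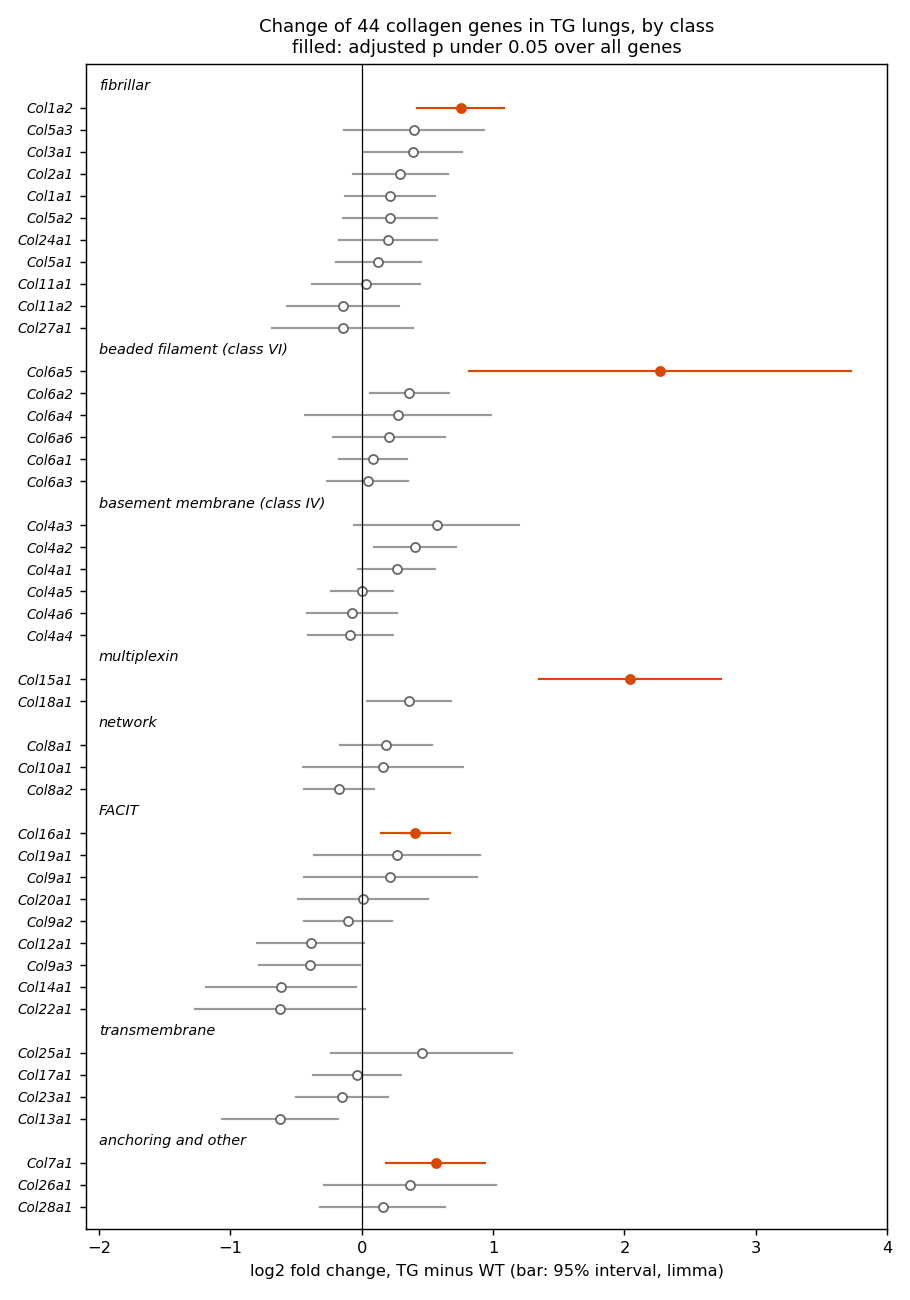
Log2 fold change of each of the 44 collagen genes (x axis, TG minus WT, bars 95% intervals from limma), grouped by class, with filled points for an adjusted p under 0.05 over all genes. Col6a5 and Col15a1 lie at 2.27 and 2.04, Col1a2 at 0.76, and most other genes lie within 0.5 of 0.

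Among the fibrillar genes, Col1a2, which encodes the pro-alpha2 chain of type I collagen, was the only one that passed the test. Its log2 value was 13.14 at the lowest, 13.45 at the median and 14.22 at the highest in the 8 WT mice, and 13.78, 14.34 and 14.73 in the 8 TG mice. The groups overlapped through WT male 1, which held the highest WT value, and through TG male 2 and TG female 3, the lowest of the TG mice. The mean rose from 13.55 ± 0.32 to 14.31 ± 0.31 (SD, n = 8 each), or 1.69-fold, which is 0.76 on the log2 scale (standard error 0.16, adjusted p = 0.00664 by limma). The call was kept without each mouse in turn, with adjusted p between 0.00213 and 0.0171. In bulk lung RNA, more cells of a type and more RNA per cell cannot be told apart.

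Col1a1, the partner chain that makes up the rest of the type I molecule, moved less. It read 11.41, 11.74 and 12.19 (lowest, median and highest) in WT and 11.59, 11.83 and 12.47 in TG mice, and all but TG female 1, TG male 3 and TG male 4 of the TG mice lay within the WT range. Its log2 fold change was 0.22, with a 95% interval from -0.13 to 0.56 and an adjusted p of 0.421. Between the brightest features, the change of Col1a2 exceeded that of Col1a1 within the same mice by 0.54 on the log2 scale (adjusted p = 0.00980 over 12 chain pairs, two-sided exact permutation of genotype within sex). This difference depends on the features chosen. A feature of Col1a1 annotated to a cDNA clone changed by 0.79, and the dimmer features of Col1a2 by -0.19, -0.01 and 0.18.

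Col3a1, whose product forms fibrils with type I collagen in vessel walls and alveolar septa, read 12.81, 13.08 and 13.93 in WT and 12.85, 13.65 and 13.93 in TG mice. WT male 1 again held the highest WT value, and TG male 2 the lowest TG value. The log2 fold change was 0.39 (adjusted p = 0.160), and the adjusted p was 0.0457 without WT male 1 and 0.0443 without TG male 2. Col5a1 and Col5a2 encode type V collagen, which starts the assembly of type I fibrils. Their log2 fold changes were 0.13 (adjusted p = 0.638) and 0.21 (adjusted p = 0.444). Of the other fibrillar genes, Col2a1, Col5a3, Col24a1 and Col11a1 had positive fold changes between 0.04 and 0.40, and Col11a2 and Col27a1 negative ones of -0.14 and -0.15, and none passed the test.

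Col15a1 encodes a multiplexin of the basement membrane zone around capillaries and muscle fibres, and it separated the genotypes. The 8 WT mice read 2.89, 3.41 and 3.98 at the lowest, median and highest, and the 8 TG mice 4.21, 5.11 and 7.02. The genotypes did not overlap, with all TG values above the highest WT value, as was the case for 0.86% of all genes, and TG female 1 and TG male 1 were the highest. No other collagen gene was separated in this way, and none was separated in the opposite direction, as were 0.893% of all genes. The log2 fold change was 2.04 (standard error 0.33, adjusted p = 0.00147 by limma), with adjusted p between 0.000608 and 0.00442 without each mouse in turn.

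Its WT level was near that of genes that are not expressed. Uty, a Y-linked gene absent from females, read between 2.66 and 4.09 in the 8 female mice, and all WT values of Col15a1 fell within that range while all TG values lay above it. A rise measured from such a level can be smaller than the true one. A second, dimmer feature for Col15a1 changed by -0.46 (adjusted p = 0.324 over all features), and both its means, 3.49 in WT and 3.03 in TG mice, also lay within the range of Uty in females.

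Col18a1, the other multiplexin and the precursor of endostatin, read 9.12, 9.39 and 9.95 in WT and 9.25, 9.96 and 10.11 in TG mice. Its log2 fold change was 0.36 (adjusted p = 0.130), and the adjusted p was 0.0223 without TG female 3, the lowest TG mouse. The change of Col18a1 was smaller than that of Col15a1 by 1.68 on the log2 scale (adjusted p = 0.00490 over 12 pairs, exact permutation within sex, where the unadjusted p of 0.000408 was the smallest that the design can give).

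Col6a5 encodes one of 3 class VI chains that can take the place of the alpha3 chain, and its values in TG lungs were the most scattered of the genes that passed. WT mice read 3.48, 4.19 and 5.28, and TG mice 3.10, 6.40 and 9.58. TG female 3 and TG female 1, at 9.58 and 8.63, were far above all others, the 4 TG males lay between 5.83 and 6.46, and TG female 2 lay below every WT mouse. The mean rose from 4.29 ± 0.63 to 6.56 ± 1.94 (SD, n = 8 each), or by 2.27 on the log2 scale (standard error 0.68, adjusted p = 0.0404). Leaving out TG female 2 gave an adjusted p of 0.000957 and leaving out TG female 3 one of 0.0497, whereas without any of the other 14 mice it was between 0.0535 and 0.0784. Its 2 other features, both dim, changed by 0.34 and 0.25 and did not pass.

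Col6a5 lies on chromosome 9 between Col6a6 and Col6a4, with 27823 and 27854 bases between the gene bodies and no other annotated gene within either gap (GRCm38.p6). The neighbours changed by 0.21 (adjusted p = 0.537) and 0.28 (adjusted p = 0.631), and both were dim, with means of 2.73 and 4.06 over the 16 arrays. Col6a1, Col6a2 and Col6a3 make up the common form of type VI collagen. Col6a1 read 12.25, 12.57 and 12.93 in WT and 12.30, 12.68 and 12.91 in TG mice. Its change was 0.09 (adjusted p = 0.691) and that of Col6a3 was 0.04 (adjusted p = 0.874). Col6a2 changed by 0.36 (adjusted p = 0.105), with TG male 2 the lowest of all 16 mice at 8.53. Without that mouse the adjusted p of Col6a2 was 0.0155. All 6 class VI genes had positive fold changes over both sexes, with a median of 0.24. All 6 were positive in females (median 0.38) and 3 in males (median 0.06).

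**Figure D2:**
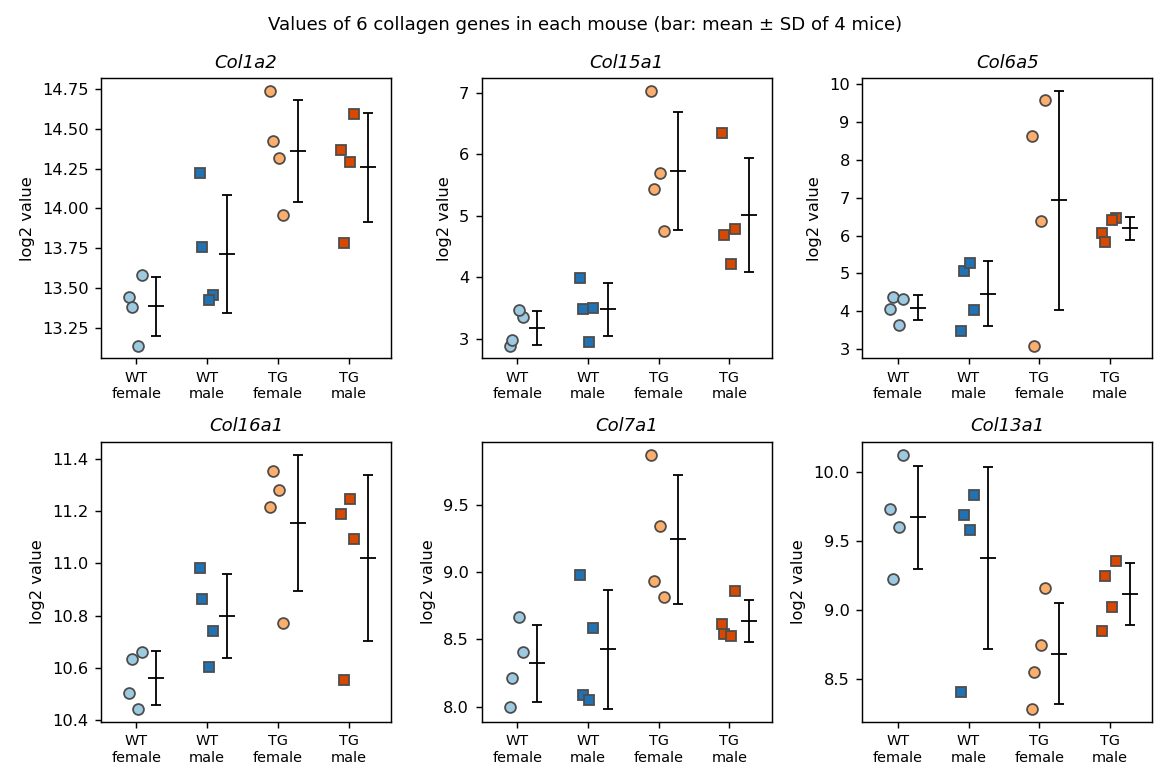
Log2 value (y axis) of 6 collagen genes in each mouse, by genotype and sex (x axis), with the mean ± SD of 4 mice beside the points. All TG values of Col15a1 exceed 4.2 and all WT values lie under 4, while the groups overlap for the other 5 genes.

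Col16a1 encodes a FACIT that binds fibrils and cells, and Col7a1 the collagen of the anchoring fibrils that fasten the epithelial basement membrane to the stroma. Col16a1 read 10.44, 10.65 and 10.98 in WT and 10.55, 11.20 and 11.35 in TG mice. The log2 fold change was 0.41 (standard error 0.12, adjusted p = 0.0399), and TG male 2 and TG female 3 were the TG mice within the WT range. Col7a1 read 8.00, 8.31 and 8.98 in WT and 8.52, 8.84 and 9.87 in TG mice. TG female 1 and TG female 4 stood above all WT mice, and the other 6 TG mice lay within the WT range. Its log2 fold change was 0.56 (standard error 0.18, adjusted p = 0.0475).

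Col26a1 and Col28a1, grouped with Col7a1, changed by 0.37 (adjusted p = 0.476) and 0.16 (adjusted p = 0.691). The rises of Col16a1 and Col7a1 were near the threshold. The call of Col16a1 was lost without any of 13 mice (adjusted p 0.0519 to 0.0815) and kept without WT male 1, TG female 3 or TG male 2 (0.0131 to 0.0295). The call of Col7a1 was lost without any of 12 mice (adjusted p 0.0636 to 0.0968) and kept without WT female 4, WT male 1, TG female 2 or TG female 3 (0.0167 to 0.0467). With both TG females that stood apart on the array as a whole left out (TG female 1 and TG female 4), an alternative chosen after seeing the data, Col7a1 changed by 0.38 (adjusted p = 0.201) and Col16a1 by 0.36 (adjusted p = 0.151).

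The other FACITs did not pass the test. Col14a1 and Col12a1, which coat type I fibrils, changed by -0.62 (adjusted p = 0.144) and -0.39 (adjusted p = 0.202). Col22a1, a collagen of tissue junctions, changed by -0.62 (adjusted p = 0.194), with means of 3.81 and 3.19 in the range of Uty in females. The cartilage genes Col9a1, Col9a2 and Col9a3 changed by 0.22, -0.10 and -0.39, and Col19a1 and Col20a1 by 0.27 and 0.01. The FACIT class had a median log2 fold change of -0.10, with 4 positive and 5 negative members.

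Class IV collagens form the network of basement membranes. Col4a1 and Col4a2, which make the form present in all basement membranes, read 12.05, 12.29 and 12.63 and 11.55, 12.04 and 12.26 in WT mice (lowest, median and highest). In TG mice they read 11.78, 12.69 and 13.07 and 11.74, 12.45 and 12.68. TG female 1 and TG female 4 had low values of both genes, and all 4 TG males exceeded the highest WT value of both. How many of all genes showed that pattern in males was not counted. The change in males did not pass for Col4a1 (0.57, adjusted p = 0.286 by limma) or Col4a2 (0.55, adjusted p = 0.349). The log2 fold changes were 0.27 for Col4a1 (adjusted p = 0.223) and 0.41 for Col4a2 (adjusted p = 0.0816). Without TG female 1 and TG female 4, Col4a2 changed by 0.58 (adjusted p = 0.0291). Col4a3, Col4a4 and Col4a5 encode the chains of the alveolar and glomerular basement membrane. They changed by 0.57 (adjusted p = 0.223), -0.09 (adjusted p = 0.759) and 0.00 (adjusted p = 0.989), and Col4a6 changed by -0.07 (adjusted p = 0.810). The value for Col4a5 depends on the feature chosen. Its other feature, with a mean of 6.97, changed by -0.64 (adjusted p = 0.0698 by limma over all features).

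Of the 4 transmembrane genes, Col13a1, whose product sits at cell contacts with the matrix, was the collagen gene closest to a fall. It read 8.40, 9.65 and 10.12 in WT and 8.28, 8.94 and 9.35 in TG mice. WT male 1, at 8.40, was apart from the other WT mice, of which all but WT female 2 lay above 9.5, whereas no TG mouse did. The log2 fold change was -0.62 (standard error 0.21, adjusted p = 0.0589). Without WT male 1 it was -0.78 (adjusted p = 0.00456), and without TG female 3 the adjusted p was 0.0326. The dimmer features of Col13a1 changed by -0.33 and 0.10. Col17a1, a hemidesmosome protein, changed by -0.04, Col23a1 by -0.15 and Col25a1 by 0.46, with adjusted p of 0.903, 0.592 and 0.388.

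The network-forming genes did not pass the test. Col8a1 and Col8a2, the short-chain collagens of vessel walls, changed by 0.18 (adjusted p = 0.505) and -0.17 (adjusted p = 0.396), and Col10a1, a marker of hypertrophic cartilage, by 0.16 (adjusted p = 0.755) at a mean of 3.46.

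Side by side, the medians of the log2 fold changes were 0.21 for the fibrillar class (9 of 11 positive), 0.13 for the basement membrane class (4 of 6), 0.16 for the network class (2 of 3) and -0.09 for the transmembrane class (1 of 4), against -0.03 over all genes. In females the medians of these 4 classes were 0.27, 0.16, 0.07 and -0.04, in the same order. In males they were 0.14, -0.08, -0.20 and -0.15. No set test was run, and the differences between these medians were not tested. When Col15a1 and Col18a1 were counted with the basement membrane class, its median was 0.31 over 8 genes, and when the class VI genes were counted as networks, the median of that class was 0.18 over 9 genes.

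**Figure D3:**
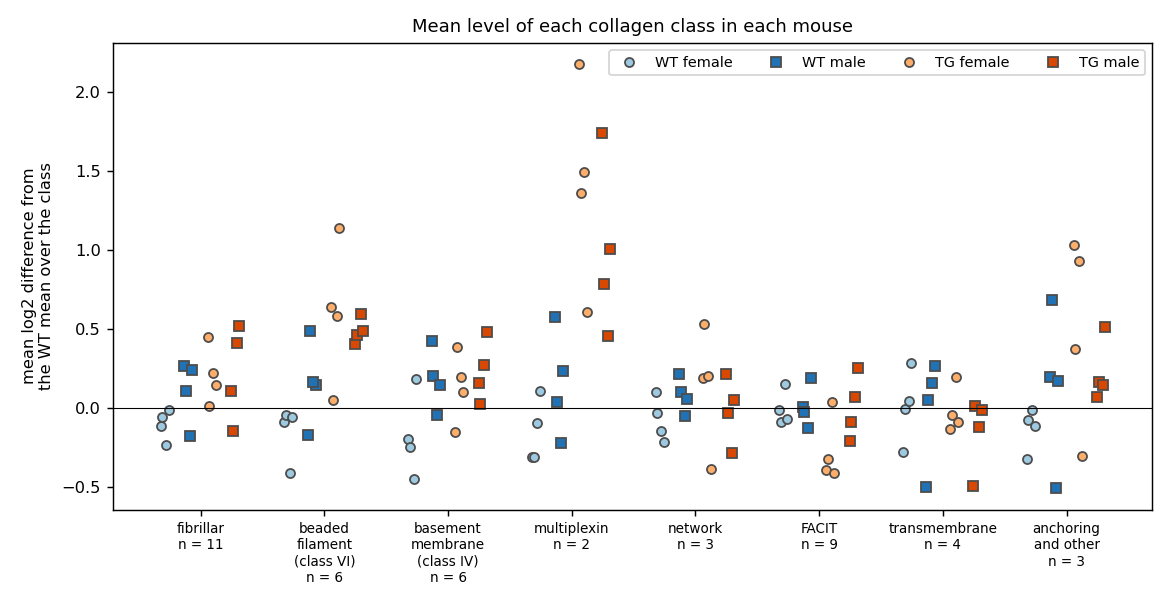
Mean log2 difference from the WT mean over the genes of each class (y axis) in each mouse, by class (x axis, n is the number of genes), coloured by genotype and sex. In the multiplexin class 7 of 8 TG mice lie above the highest WT mouse, in the beaded filament class 4, in the fibrillar class 3 and in the transmembrane class none, while in the FACIT class 4 and in the network class 2 lie below the lowest WT mouse.

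The levels per mouse showed how far the classes overlapped. Averaged over the 11 fibrillar genes, the difference from the WT mean lay between -0.24 and 0.26 in WT mice and between -0.15 and 0.51 in TG mice, so that 3 of 8 TG mice lay above all WT mice. For the basement membrane class it lay between -0.45 and 0.42 in WT mice and between -0.15 and 0.48 in TG mice, with 1 TG mouse above all WT mice. For the FACIT class 4 TG mice and for the network class 2 lay below all WT mice, and 1 of each above them. For the 2 multiplexins 7 TG mice lay above all WT mice and for class VI 4 did, in classes that hold Col15a1 and Col6a5. For the transmembrane class every TG mouse lay within the WT range of -0.50 to 0.28.

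Females and males were compared within the same fit. In females 6 collagen genes (13.6%) passed the test, where 16.1% of all genes did. Col15a1 (2.56), Col1a2 (0.97), Col7a1 (0.92) and Col16a1 (0.59) were higher and Col13a1 (-0.99) and Col9a3 (-0.79) lower on the log2 scale. The female means of Col9a3, 3.66 in WT and 2.88 in TG mice, lay within the range of Uty in females. Its dimmer feature changed by 0.06 in females. In males no collagen gene passed, where 0.646% of all genes did. At an unadjusted p under 0.05 there were 4 collagen genes in males, where 10.1% of all genes lay under that limit. The log2 fold changes in males were 1.53 for Col15a1, 0.54 for Col1a2, 0.21 for Col7a1 and 0.22 for Col16a1.

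The difference between the sexes itself did not pass for any collagen gene (smallest adjusted p = 0.353), and it passed for 0% of all genes. At an unadjusted p under 0.05 there were 5 collagen genes, where 12.9% of all genes lay under that limit. These were Col4a1, with a change of -0.04 in females and 0.57 in males (Col4a2, 0.26 and 0.55), Col4a3 (1.25 and -0.11), Col4a6 (0.30 and -0.45), Col8a1 (0.57 and -0.20) and Col9a3 (-0.79 and 0.00). The sign was the same in both sexes for 26 of 44 collagen genes.

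Of 12 pairs of related chains, 5 varied together between mice of a group beyond the threshold. The 12 pairs were chosen from chains of 1 molecule, fibril or class, and other such pairs, among them Col6a2 and Col6a3, were not tested. Deviations from the 4 group means were correlated over the 16 mice, with two-sided exact permutation within groups and adjustment over the 12 pairs. Col4a1 and Col4a2 had the closest relation, with Pearson's r = 0.902 (adjusted p = 0.000253) and Spearman's rho = 0.903, and r = 0.879 without the 2 mice farthest from the median of Col4a1. These genes share a start region on chromosome 8, where the gene bodies overlap head to head. The gene bodies of Col4a3 and Col4a4 also overlap, and those of Col4a5 and Col4a6 lie 1274 bases apart.

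Col1a1 and Col1a2 had r = 0.732 (adjusted p = 0.0229, exact permutation) and rho = 0.682, with r = 0.667 without the 2 farthest mice. Col1a1 and Col3a1 had r = 0.691 and rho = 0.768, Col4a3 and Col4a4 r = 0.678 and rho = 0.641, and Col4a5 and Col4a6 r = 0.699 and rho = 0.747, each with an adjusted p of 0.0229 for r by exact permutation. Without the farthest mice these r values were 0.642, 0.638 and 0.612. The other 7 pairs did not pass. Col15a1 and Col18a1 (r = 0.618, rho = 0.568, adjusted p = 0.0783) and Col6a1 and Col6a2 (r = 0.598, rho = 0.603, adjusted p = 0.0778) missed the threshold by the same exact permutation. Col6a1 and Col6a3 had r = 0.527 and rho = 0.444 (adjusted p = 0.101, exact permutation). Col11a1 and Col11a2 (r = 0.239, rho = 0.174, adjusted p = 0.576) and Col9a1 and Col9a2 (r = 0.0779, rho = 0.0353, adjusted p = 0.862) changed sign without the 2 farthest mice, to r = -0.236 and r = -0.174 (exact permutation for all p). Col5a1 and Col5a2 had r = -0.113 and rho = -0.10, and Col8a1 and Col8a2 r = -0.300 and rho = -0.41, with adjusted p of 0.757 and 0.381 by exact permutation. All arrays share 1 normalization, which can itself make genes move together.

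**Figure D4:**
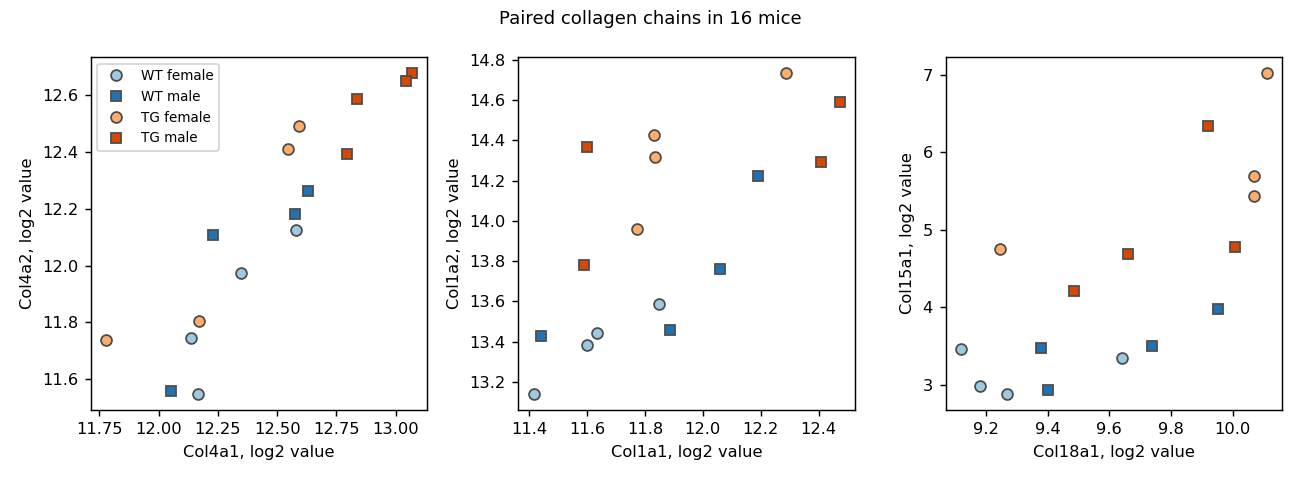
Log2 values of Col4a1 against Col4a2, Col1a1 against Col1a2 and Col18a1 against Col15a1 in 16 mice, coloured by genotype and sex. Col4a1 and Col4a2 follow a line shared by all groups, while TG mice lie above WT mice at like values of Col1a1 and of Col18a1.

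Different features of a gene did not always give the same change. Tested one by one over all features with a gene symbol, 6 of the 109 collagen features were higher, where 5.86% of all features were. Those of Col1a2, Col15a1, Col6a5 and Col16a1 were the features that stood for these genes. The others were a feature of Col1a1 that is annotated to a cDNA clone, with a change of 0.79 (adjusted p = 0.0232 over all features), and a dim feature of Col6a3 with 0.88 (adjusted p = 0.0216). Col7a1, which passed over genes, has 1 feature, and it did not pass over all features (adjusted p = 0.0538 by limma). The 20 features annotated to the reference transcript of Col1a1 that read above 8 changed by 0.14 to 0.25, and none passed. Of the dimmer features of Col1a2, 3 changed by -0.19, -0.01 and 0.18. With the mean over all features of a gene, the change of Col1a2 was 0.18 (adjusted p = 0.408). The table holds no probe sequences, so where in each transcript a feature lies was not analysed here.

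**Figure D5:**
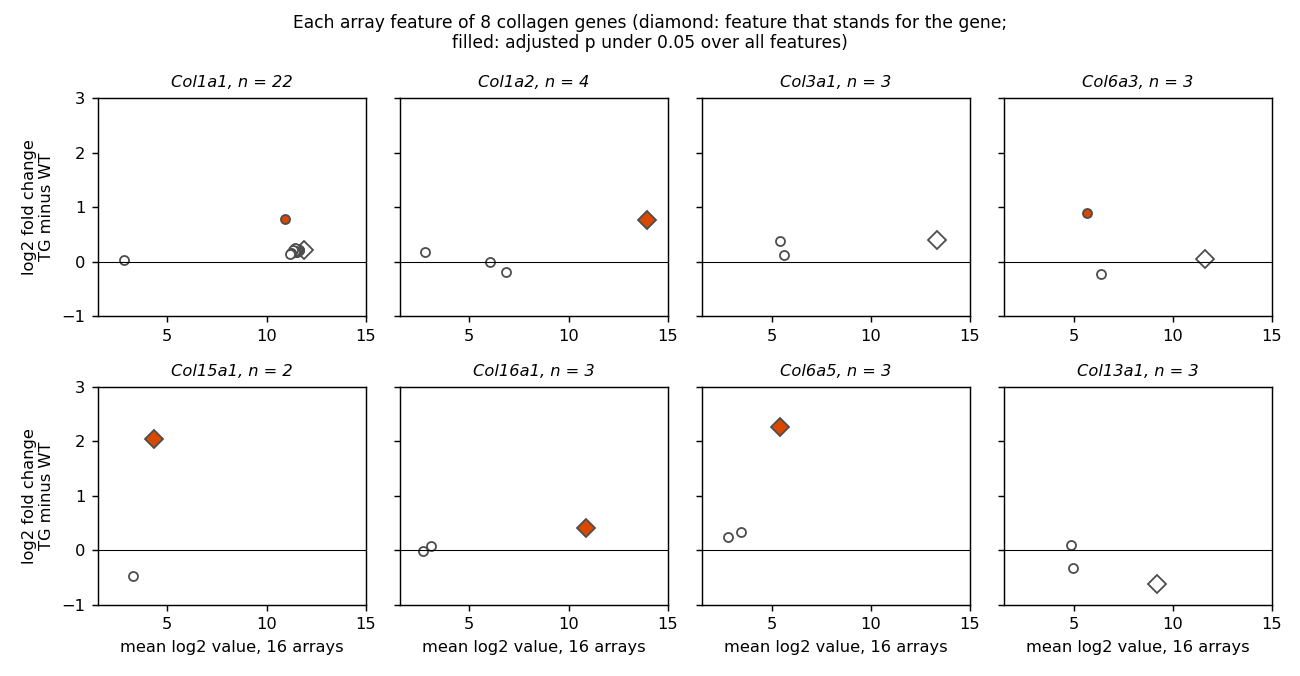
Log2 fold change (y axis, TG minus WT) of each array feature of 8 collagen genes against its mean log2 value over 16 arrays (x axis), with diamonds for the feature that stands for the gene and filled symbols for an adjusted p under 0.05 over all features. For Col1a1 a cluster of features lies near 0.2 with 1 feature at 0.79, and for Col1a2 the bright feature lies at 0.76 with 3 dimmer ones between -0.19 and 0.18.

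Fra-2 pairs with Jun proteins to bind the AP-1 motif, so the sequence before the start of each gene was searched for it. RefSeq windows of 300 bases (250 before and 50 after the start, GRCm38.p6) were at hand for 35 of the 44 collagen genes. The AP-1 motif TGANTCA, read on both strands, was found in 1 of these 35, in Col6a1, against 8.57% of 19217 genes with such a window. None of the 5 genes that were higher in TG lungs held it in its window. For Col15a1, Col16a1 and Col6a5 the start used lay inside the annotated gene, so other start regions were not searched. The GC box GGGCGG, searched on both strands, was found for 22 of 35 collagen genes (62.9%) against 47.4% of all genes, and CCAAT for 13 (37.1%) against 41.9%. A match is a description of the letters in this window only.

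The 120 bases before the start are shown for Col6a1, the gene with the AP-1 match, and for Col1a2 and Col7a1, the genes higher in TG lungs whose window begins at the outer end of the gene. Capitals mark these 3 motifs where they occur. The stretch of Col6a1 is chr10:76726045-76726164 on the minus strand, that of Col1a2 chr6:4505498-4505617 on the plus strand, and that of Col7a1 chr9:108953466-108953585 on the plus strand.
Col6a1: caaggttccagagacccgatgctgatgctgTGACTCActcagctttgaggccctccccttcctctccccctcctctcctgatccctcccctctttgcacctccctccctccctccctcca
Col1a2: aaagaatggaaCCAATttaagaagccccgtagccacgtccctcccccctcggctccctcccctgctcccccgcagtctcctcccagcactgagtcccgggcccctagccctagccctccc
Col7a1: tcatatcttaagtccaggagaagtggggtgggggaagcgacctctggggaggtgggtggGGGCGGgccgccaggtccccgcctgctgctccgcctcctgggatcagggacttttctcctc

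In Col6a1 the AP-1 letters begin 90 bases before the start, and the gene changed by 0.09 in TG lungs. In Col1a2 CCAAT begins 109 bases before the start, and in Col7a1 the GC box begins 61 bases before it.

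Genes that act on collagens moved in both directions. Of 20 measured hydroxylases, chaperones and secretion factors of procollagen, none was higher and 4 were lower, against shares of 6.05% and 7.08% over all genes. Colgalt2, which adds galactose to hydroxylysine, fell by 0.99 on the log2 scale (adjusted p = 0.00314), P4ha1, a catalytic subunit of prolyl 4-hydroxylase, by 0.55 (adjusted p = 0.0217), Tmem38b by 0.41 and Ppib, a prolyl isomerase, by 0.36. Serpinh1, the collagen chaperone Hsp47, changed by 0.52 (adjusted p = 0.107). The median of this list was -0.13.

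Of 14 genes of propeptide removal and cross-linking, 1 was higher and 1 lower, against shares of 6.05% and 7.08% over all genes. Loxl2, a lysyl oxidase that cross-links class IV and fibrillar collagens, rose from 8.35 ± 0.33 to 9.35 ± 0.21 (SD, n = 8 each; adjusted p = 0.000987). Its highest WT mouse read 8.77 and its lowest TG mouse 9.10, and 0.86% of all genes had all TG mice above all WT mice. Adamts14, a procollagen N-propeptidase, fell from 8.86 ± 0.23 to 7.62 ± 0.49 (log2 fold change -1.25, adjusted p = 6.84e-05).

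Among 12 small leucine-rich proteoglycans, which bind fibrils and set their diameter, 1 was higher and 3 were lower, where 6.05% and 7.08% of all genes were. Podn was higher by 1.16 (adjusted p = 0.00765), and Lum (-1.16), Ogn (-0.67) and Ecm2 (-0.65) were lower. Of 14 basement membrane partners 3 were higher and 1 lower, against the same shares. Hspg2, which encodes perlecan, rose by 0.77 (adjusted p = 0.0316), the laminin chain Lama5 by 0.61 (adjusted p = 0.00552) and Nid1, which links laminin to class IV collagen, by 0.46 (adjusted p = 0.0122). Lamb3, a chain of epithelial laminin, fell by 0.58 (adjusted p = 0.0180).

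Of 10 collagen receptors 1 was higher and 1 lower, against shares of 6.05% and 7.08%. The integrin chain Itga2 was higher by 0.59 (adjusted p = 0.0248) and Itga11, an integrin chain of fibroblasts, lower at -0.77 (adjusted p = 0.0166). Of 10 genes of collagen degradation 1 was higher and 3 were lower, against the same shares. Mmp14, a membrane-bound collagenase, was higher by 0.77 (adjusted p = 0.00391). The neutrophil collagenase Mmp8 (-1.03), Mmp9 (-1.25) and Pepd, which splits proline-containing dipeptides (-0.43), were lower.

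Some markers of the cells that make these collagens also moved, and each count stands against 6.05% of all genes higher and 7.08% lower. Of 12 endothelial markers 6 were higher and none lower, among them Egfl7 (0.66), Tie1 (0.74) and Emcn (0.58), while 5 had negative fold changes that did not pass, from -0.03 for Pecam1 to -0.21 for Tek, and the mean log2 level of the list was 11.72 to 11.89 in WT mice and 11.70 to 12.28 in TG mice. Of 10 pericyte markers 3 were higher, led by Abcc9 (1.08) and Cspg4 (0.92), and Kcnj8 (-0.37) was lower (WT 8.76 to 9.19, TG 8.98 to 9.43). Of 15 fibroblast markers 2 were higher, Cd34 (1.55) and Clec3b (0.98), and Lum and Mfap5 were lower, with negative fold changes in 12 of the 15 and a median of -0.07 (WT 11.03 to 11.35, TG 10.75 to 11.36). Of 8 markers of basal and squamous epithelium, where anchoring fibrils are found, 3 were higher, led by Krt14 (3.71), whereas Krt5 (-0.11), Krt15 (-0.06) and Ngfr (-0.50) did not pass, and the mean level of the list was 4.95 to 5.86 in WT mice and 5.49 to 7.28 in TG mice.

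Where 7.08% of all genes were lower, 7 of 10 leukocyte markers were (WT 10.25 to 10.88, TG 9.43 to 10.45), and so were 5 of 7 adipocyte markers (WT 7.41 to 9.70, TG 6.14 to 8.28). The leukocyte markers did not all fall. The T cell marker Cd3e (0.44, adjusted p = 0.0567 by limma) and Laptm5 (0.36, adjusted p = 0.0725) had positive fold changes that did not pass. The adipocyte markers had a median change of -2.29 in females, with 5 called, and of -0.19 in males, with none called. Cardiac muscle markers were read in all lungs (WT 8.85 to 12.43, TG 7.28 to 11.44). Of these 8 markers 1 was lower by the test, and all 8 had negative fold changes, with a median of -1.05. Cartilage markers were low (WT 4.22 to 4.51, TG 4.21 to 4.69), with 1 of 10 lower. Markers of alveolar type 2 cells, which identify lung, read 13.60 to 13.92 in WT and 13.55 to 13.98 in TG mice, with none of 8 called. Of the alveolar type 1 and smooth muscle markers 1 each was lower, and of 7 mesothelial markers 1 was higher, where 6.05% of all genes were higher and 7.08% lower. The part of any of these shifts in the changes of the collagen genes was not tested.

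Arrays correlated between 0.953 and 0.990 over all genes. The main axis of variation between arrays (28.5% of the variance) separated the genotypes except for WT male 1. On it the other WT mice lay between -45.6 and -27.1 and the TG mice between 4.02 and 89.5. WT male 1, at 11.5, lay among the TG mice, and TG female 1 (89.5) and TG female 4 (76.6) lay farthest out. These 3 arrays were taken as standing apart. Without these 3 mice, chosen after seeing the data, 3 collagen genes were higher (Col15a1, Col1a2 and Col4a2) and Col13a1 was lower. Uty read higher in every male than in any female, as labelled. Of the 2 features for Fosl2, the brighter changed by -0.14 (adjusted p = 0.731 over all features) and the dimmer rose from 3.40 to 8.17 (adjusted p = 2.118e-05). The dimmer feature read highest in TG female 1 (10.66) and TG female 4 (9.66), against 6.56 to 8.38 in the other TG mice. Its change was 5.70 in females and 3.83 in males. How the collagen changes of single mice or of each sex relate to this reading was not tested. Of the 44 collagen genes, 11 had a mean under the highest value of Uty in a female, and among the 33 others 24 had positive and 9 negative fold changes, with a median of 0.21 against -0.06 over all genes at that level.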

How the data were processed

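RNA of the right lung of 16 mice was hybridized to single-colour Agilent mouse arrays. The labels give Trizol extraction and Cy3, the methods another kit and Cy5. The authors corrected intensities for background, quantile normalized them with limma and deposited log2 values per feature. No version of limma, background method or genome build is given in the sources used here. The number of arrays limits the precision. The table holds no signal over background. The columns of all 16 samples were used.

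Of 62976 features, 43941 had 1 gene symbol and 19035 had none and were left out. The feature with the highest mean over 16 arrays stood for each of 24306 genes. Symbols came from the platform annotation, updated through a gene table of GRCm38.p6. Group, sex and replicate number came from the labels, and the mice were taken as biological replicates as the design text states.

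Limma 3.58.1 in R 4.3.3 fitted 4 group means, and TG was compared with WT as the mean over both sexes. The threshold was an adjusted p of 0.05 (Benjamini-Hochberg over all genes). Scripts were tested on simulated data. Values per mouse are given for the genes that passed and the major chains of the lung. Of the other lists, up to 4 members with the smallest adjusted p are named, and for some marker lists also members that went the other way. The clone-annotated feature of Col1a1, the dim one of Col6a3, the dim one of Fosl2, Serpinh1 and Col13a1 were singled out after their values were seen. The members, classes, pairs and lists were chosen with earlier results of these data known. Alternatives covered the model, the feature, filters, scaling, the test, the threshold, each sex and each mouse left out. Plots used matplotlib 3.10.9 in Python 3.11.15.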

Additional observations from a re-analysis of the deposited data

Results flagged for a closer look

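Among 88 groups of 8 mice (44 collagen genes in 2 genotypes), 6 held a mouse whose gap to the nearest other was large for the range of the group (Dixon's criterion for 8 values), or 6.82%, and chance alone gives about 1 in 20. WT male 1 was high for Col3a1, at 13.93 against 13.23 in the next mouse, and for Col4a6, at 9.45 against 8.77. WT male 2 was high for Col28a1, at 4.62 against 3.24. TG male 2 was low for Col6a2, at 8.53 against 9.15, TG female 2 for Col14a1, at 2.94 against 4.35, and TG female 1 for Col4a4, at 9.12 against 9.62. WT male 1 and TG female 1 were also among the 3 arrays that stood apart over all genes.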

How the results depend on the processing

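The shares in parentheses are those of all genes called in that direction under the same setting. The 5 higher collagen genes (6.05%) became 2 with the replicate number as a block (replicate block, Col15a1 and Col1a2, 5.81%), 1 with the mean of all features (4.67%), 2 by the exact Wilcoxon test (5%), 2 at an adjusted p under 0.01 (2.26%), 2 at a change of at least 2-fold (1.25%), 2 with females fitted alone (4.01%) and 0 with males fitted alone (0.16%). Without each mouse in turn there were 2 to 6 (4.14% to 7.78%). Without the 3 arrays that stood apart there were 3 (5.2%), as without both TG females among them (3.07%), alternatives chosen after seeing the data. The number of lower genes, 0 (7.08%), became 1 with the replicate block (6.9%), with eBayes trend and robust (8.94%), with array weights (9.73%), without the 3 arrays (5.54%) and without the dimmest 50% of genes, where 25 collagen genes were left (18.1%), each time Col13a1. It was 2 with females alone (Col13a1 and Col9a3, 4.23%) and 0 to 1 without each mouse in turn (4.39% to 9.75%). The block and the plain fit agreed on Col15a1 and Col1a2. Deviations of same-numbered mice correlated at r from -0.106 to 0.172 over 24 pairs, 3 of them above 0.1. Of 16 mice 6 were closest to their own number. The r of differently numbered mice was not set beside these, so the check does not settle whether the numbers pair the mice.

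Col15a1 lost its call in 1 of 29 alternatives (males alone) and Col1a2 in 3 of 30 (mean of features, 2-fold, males alone). Col6a5 lost it in 24 of 29, and Col16a1 and Col7a1 in 22 of 30 each. No called gene changed sign. The difference between the sexes passed for 0 genes under each of 3 alternatives, and 5 of 12 pairs passed by Pearson and by Spearman. Values near the array floor limit what can be said of 11 genes.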
